A study of Mus musculus with 14 samples.

Results

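Homeostatic chemokines guide lymphocytes and dendritic cells through lymphoid tissue. Here the group comprised the ligands Cxcl13, Ccl19 and Cxcl12 and their receptors Cxcr5, Ccr7 and Cxcr4. CXCL13 from follicular stroma draws CXCR5-bearing B cells and follicular helper T cells into follicles. CCL19 from fibroblastic reticular cells draws CCR7-bearing naive T cells and mature dendritic cells into T cell zones. CXCL12 retains CXCR4-bearing leukocytes in bone marrow and recruits them to tissues. The lymphotoxin beta receptor, through non-canonical NF-kB signalling in stromal cells, is known to maintain Cxcl13 and Ccl19 in lymph nodes and spleen. Lymphoid aggregates with the same chemokines form in the outer wall of atherosclerotic arteries.

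A gene entered the description when at least 1 probe set carried its symbol and no other symbol. Of the 6 named genes, 5 were measured in this way, each by 1 probe set, among 22180 genes in all. Ccl19 had no probe set of its own: its 13 probe sets are annotated jointly to copies of the gene, and they are described as shared probe sets.

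The samples came from male mice, 12 weeks old, that had eaten a Western type diet for 4 weeks. The double-deficient mice lacked both ApoE and LTbR (apoE-/-LTbR-/-), and their littermates lacked ApoE alone (apoE-/-), so every group was ApoE-deficient and none was wild type, although sample titles call the littermates WT. Aorta with its perivascular fat was profiled from 4 double-deficient and 4 ApoE-deficient samples. CD115 is the macrophage colony-stimulating factor receptor, carried by blood monocytes. Bead selection for CD115 from blood yielded 3 double-deficient preparations (replicates 1 to 3) and 3 ApoE-deficient ones (replicates 1, 3 and 4). ApoE-deficient blood replicates 3 and 4 were each a pool of 2 littermate samples. The labels do not say what kind of deletion was used or whether a mouse gave both aorta and blood.

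The deposited values are read as log2 signals with the median of each probe set within each tissue already subtracted. A value of 0 is therefore the middle of the tissue's arrays, and a level of one gene or tissue cannot be set against that of another. The labelled tissues could not be checked against the absolute level of their markers for the same reason. Differences are double-deficient minus ApoE-deficient, with limma standard errors and Benjamini-Hochberg adjustment over all 22180 genes at a threshold of 0.05. The precision is limited by the number of arrays, and an exact two-sided permutation test cannot give less than 0.0286 with 4 against 4 arrays or less than 0.1 with 3 against 3. In tissue and in bead-selected cells alike, fewer cells of a type and less RNA per cell cannot be told apart.

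Ltbr checked the labels. It was at -0.98, -1.10, -1.29 and -0.49 in double-deficient aortas, against 0.63, 0.49, 0.70 and 0.89 in ApoE-deficient aortas. In blood cells it was at -0.07, -0.62 and -0.44 in double-deficient preparations, against 0.55, 0.07 and 0.40 in ApoE-deficient preparations. The groups did not overlap in either tissue. In the lower direction this held for 2.11% of all genes in aorta and for 5.23% in blood cells. The differences were -1.64 (SE 0.17, adjusted p = 0.0679 by limma) and -0.72 (SE 0.18, adjusted p = 0.976). It is not known here whether this probe set covers deleted sequence.

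The 250 bases before the start of Cxcl13 are shown because they hold the element through which RelB-containing NF-kB dimers are known to act on this gene. The sequence is RefSeq's, on GRCm38.p6, chr5:95956689-95956938, plus strand, 5′ to 3′, with the element in capitals.
Cxcl13: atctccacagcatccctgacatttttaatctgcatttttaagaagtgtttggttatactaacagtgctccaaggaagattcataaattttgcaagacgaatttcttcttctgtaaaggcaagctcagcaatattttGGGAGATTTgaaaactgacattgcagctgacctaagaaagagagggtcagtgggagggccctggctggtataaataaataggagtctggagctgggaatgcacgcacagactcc
The letters searched were GGGAGATTT on either strand, and the match begins at base -114 from the start. Of 32851 promoter windows of the same length, 0.283% held these letters. The windows of Ccl19, Cxcl12 and Cxcr4 did not hold them, and none of these 4 windows held the consensus kappaB element, which 7.3% of all windows held. Cxcr5 and Ccr7 were not in the promoter table.

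In the aorta, all 5 measured genes had a lower mean in double-deficient samples, and the receptors of B and T cell homing, Cxcr5 and Ccr7, differed most. Cxcr5 was 2.24-fold and Ccr7 2.12-fold lower on average. In CD115+ blood cells the order was turned: Cxcr5, Ccr7 and Cxcr4 had higher means in double-deficient preparations. None of the 5 genes passed the threshold in either tissue. The median difference of the 5 genes was -0.63 in aorta, where the median of all genes was 0.008 and 47.2% of genes had a negative difference. In blood cells it was 0.40, where the median of all genes was -0.01 and 55.3% were negative.

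Read against all genes, 0 of 5 passed the adjusted threshold in aorta, where 0.00451% of genes did (1 gene). At an unadjusted p under 0.05, 2 of 5 were lower in double-deficient aortas, against 3.81% of all genes. The groups overlapped for all 5 genes in aorta, while 2.11% of all genes were lower without overlap. In blood cells 0 of 5 passed the adjusted threshold, as did 0% of all genes by limma. At an unadjusted p under 0.05, 974 genes differed there. Among them 1 of the 5 genes, Ccr7, was higher, against 2.06% of all genes.

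**Figure D1:**
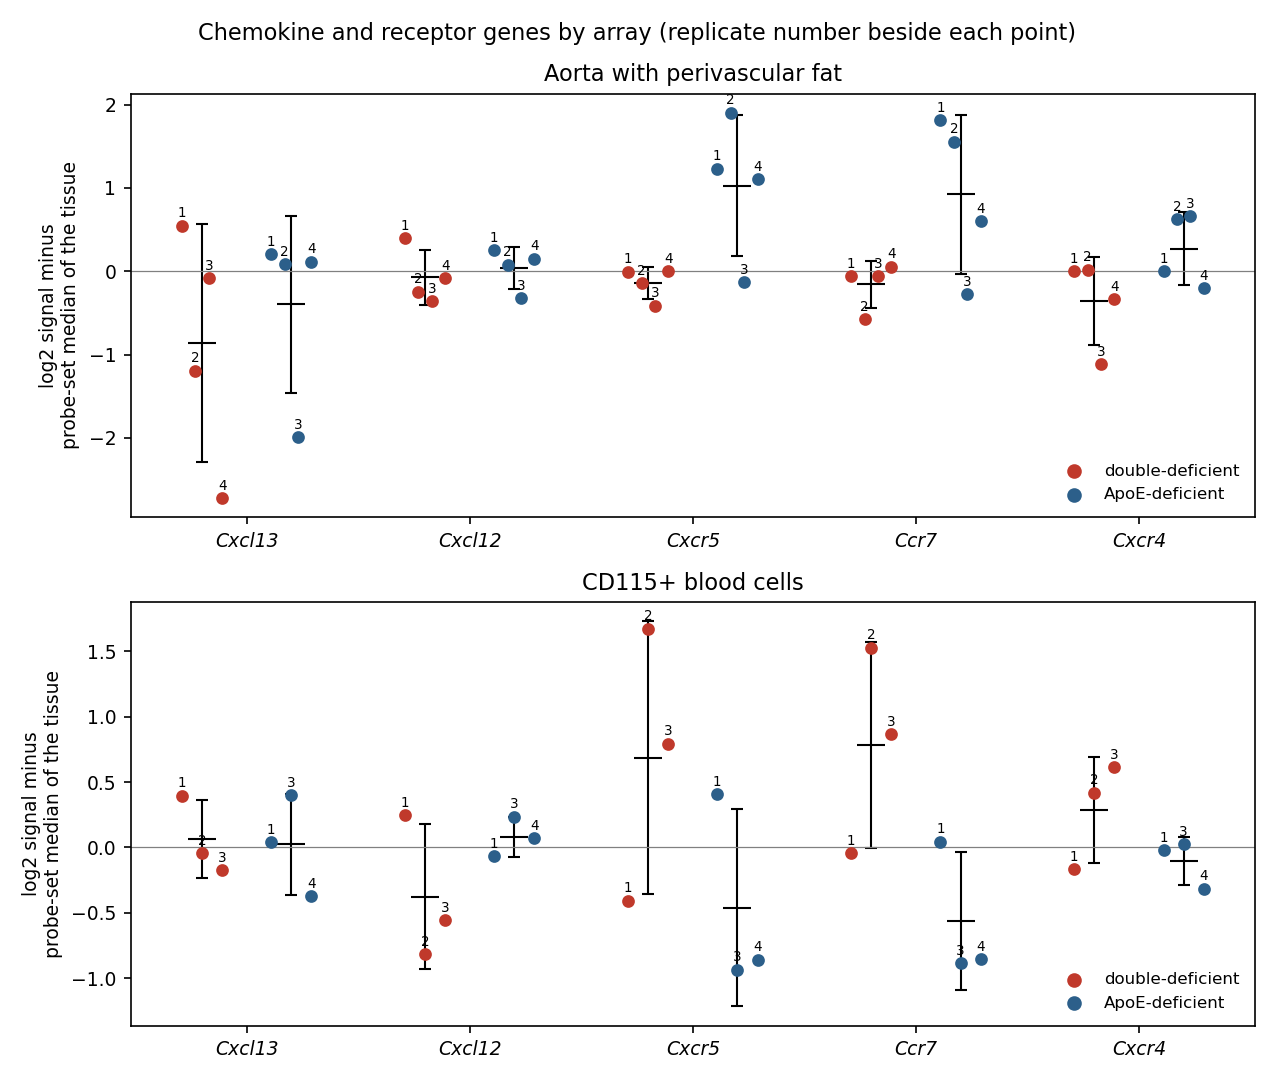
Log2 signal of each gene relative to its median in the tissue (vertical axis) for every array, in double-deficient (red) and ApoE-deficient (blue) samples, with the replicate number beside each point and the mean ± SD in black. In aorta Cxcr5 and Ccr7 are high in ApoE-deficient replicates 1, 2 and 4 but not in replicate 3. In blood cells both are highest in double-deficient replicates 2 and 3.

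Among the ligands, Cxcl13 varied widely in aorta without following genotype. It was at 0.55, -1.19, -0.08 and -2.72 in double-deficient aortas, against 0.20, 0.08, -1.99 and 0.12 in ApoE-deficient aortas. The highest and the lowest array were both double-deficient, and the ApoE-deficient replicate 3 lay far below its 3 companions. The means were -0.86 ± 1.43 in double-deficient and -0.40 ± 1.06 in ApoE-deficient aortas (SD, n = 4 each). The difference of -0.47 (SE 0.78, adjusted p = 0.93 by limma, exact permutation p = 0.629) had a 95% interval from -2.27 to 1.34, which spans both directions. It was -0.996 without ApoE-deficient replicate 3 and 0.15, with the sign turned, without double-deficient replicate 4.

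In blood cells Cxcl13 was at 0.40, -0.04 and -0.17 in double-deficient preparations, against 0.04, 0.40 and -0.37 in ApoE-deficient preparations. The groups covered nearly the same range. The difference was 0.04 (SE 0.24, adjusted p = 0.995 by limma, 95% interval -0.55 to 0.62).

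Cxcl12 differed little in aorta. Its values were 0.40, -0.24, -0.36 and -0.08 in double-deficient aortas, against 0.25, 0.08, -0.33 and 0.15 in ApoE-deficient aortas, and each group had arrays on both sides of 0. The difference was -0.11 (SE 0.19, adjusted p = 0.931 by limma, exact permutation p = 0.571), with a 95% interval from -0.55 to 0.33. It was -0.27 without double-deficient replicate 1 and -0.02 without double-deficient replicate 3. Cxcl12 lies on the same chromosome as Ltbr, which differed by genotype in these mice.

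In blood cells Cxcl12 was at 0.25, -0.82 and -0.56 in double-deficient preparations, against -0.07, 0.24 and 0.07 in ApoE-deficient preparations. The low values were those of double-deficient replicates 2 and 3, and replicate 1 was the highest of all. The difference was -0.46 (SE 0.28, adjusted p = 0.976 by limma, exact permutation p = 0.4). It was -0.77 without double-deficient replicate 1 and -0.23 without double-deficient replicate 2. In the same 2 preparations the fibroblast marker mean was low too, at 0.19, -0.33 and -0.33 in double-deficient preparations, against -0.05, 0.15 and 0.08 in ApoE-deficient preparations. All 5 of its genes were negative (median -0.31, with -0.52 when double-deficient replicate 1 was left out, -0.19 when replicate 2 was, -0.15 when replicate 3 was and -0.20 when ApoE-deficient replicate 3 was). The smooth muscle, adipocyte, endothelial and lymphatic endothelial means were below 0 in the same 2 preparations and above 0 in double-deficient replicate 1. The part of these markers in the Cxcl12 values was not tested.

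Ccl19 itself has no value here, since each of its 13 probe sets is also annotated to copies such as Gm2564 and Gm12407. Among the 13, 12 were lower in double-deficient aortas without overlap between the groups, against 2.37% of all 33793 probe sets. Their median was -0.20, -0.83, -0.87 and -0.81 in the 4 double-deficient aortas, against 0.95, 0.69, 0.20 and 0.43 in the ApoE-deficient aortas. Unlike Cxcr5 and Ccr7, the shared probe sets were above 0 also in ApoE-deficient replicate 3. The median difference was -1.26, with a range from -1.41 to 0.36. The adjusted p by limma over all probe sets ran from 0.236 to 0.904, and 0 probe sets of the whole table passed. The 13 probe sets carry largely the same annotation, and their values had a median correlation of 0.97 over the aorta arrays, so most of them are not separate measurements. The lowest correlation between a pair was -0.44, and the 1 probe set with a positive difference was at 0.36. Which copy they report cannot be told, and they were singled out after their values had been seen.

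In blood cells the same probe sets had small differences, with a median of -0.27. Of the 13, 11 were lower in double-deficient preparations without overlap, against 5.21% of all probe sets. The narrowest of these separations was -0.0003 against 0.0003. With a median correlation of 0.87 over the blood arrays, most of the 13 are not separate measurements here either. The medians of the 13 were -0.04, -0.17 and -0.21 in double-deficient preparations, against 0.13, 0.07 and 0.07 in ApoE-deficient preparations. CCL21, the other ligand of CCR7, is likewise covered only by probe sets shared among copies, 9 in number. These were at a median of 0.003, -0.21, -0.003 and -0.64 in double-deficient aortas, against 0.86, 0.92, -0.52 and 0.16 in ApoE-deficient aortas. Here the groups overlapped, with ApoE-deficient replicate 3 again low, and the median difference was -0.57 (adjusted p from 0.712 to 0.756 by limma).

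**Figure D2:**
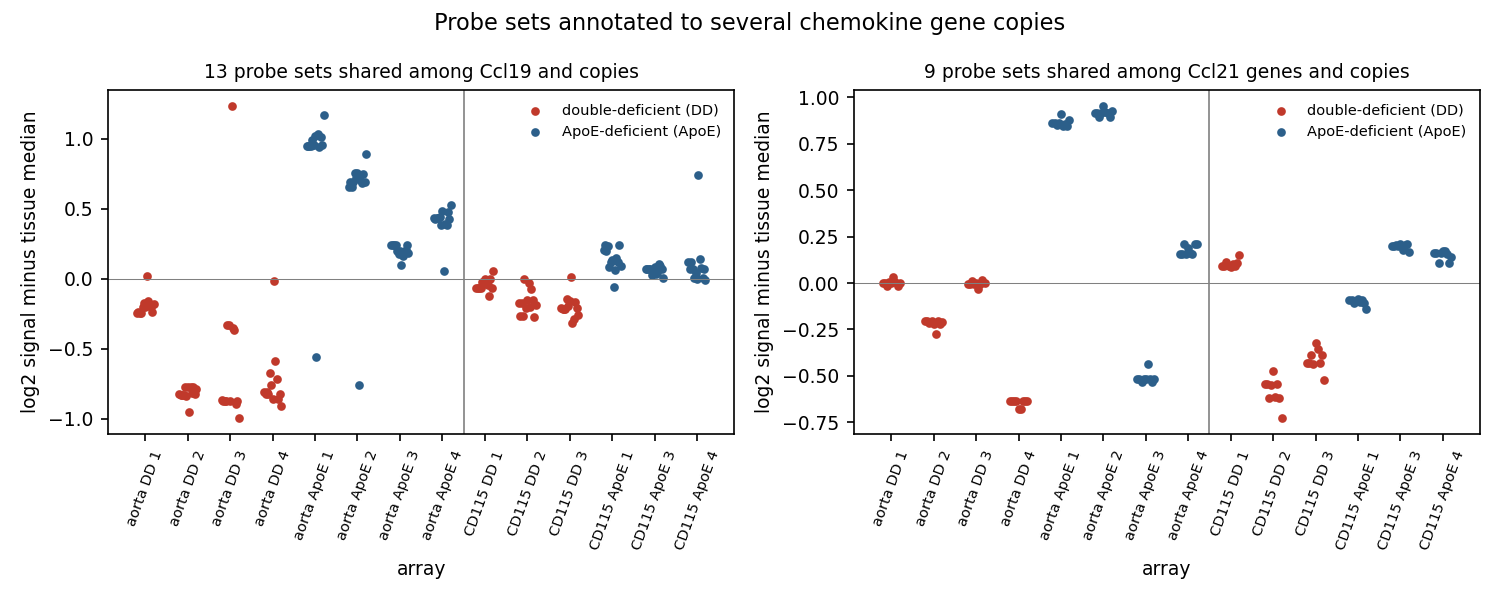
Log2 signal relative to the tissue median (vertical axis) of the probe sets annotated jointly to Ccl19 and its copies (left) and to the Ccl21 genes and their copies (right), one point per probe set and array, double-deficient (red) before ApoE-deficient (blue) within each tissue. In aorta 12 of the 13 Ccl19-type probe sets separate the genotypes, and the 9 Ccl21-type probe sets do not.

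Cxcr5, the receptor of CXCL13 on B cells and follicular helper T cells, was at -0.0033, -0.15, -0.41 and 0.0033 in double-deficient aortas, against 1.23, 1.90, -0.13 and 1.10 in ApoE-deficient aortas. The double-deficient arrays lay close together, and 3 of 4 ApoE-deficient arrays stood well above them. The fourth, replicate 3, lay inside the double-deficient range. The difference was -1.17 (SE 0.38, 95% interval -2.05 to -0.28, unadjusted p = 0.0162, adjusted p = 0.539 by limma, exact permutation p = 0.0857). Without ApoE-deficient replicate 3 it was -1.55 with an adjusted p of 0.0492, and then Cxcr5 was among 74 genes past the threshold. The adjusted p over all 17 alternatives ran from 0.0492 to 0.772.

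Ccr7, the receptor of CCL19 and CCL21, followed the same arrays. It was at -0.06, -0.57, -0.06 and 0.06 in double-deficient aortas, against 1.81, 1.55, -0.27 and 0.60 in ApoE-deficient aortas. The difference was -1.08 (SE 0.44, 95% interval -2.09 to -0.07, unadjusted p = 0.0385, adjusted p = 0.619 by limma, exact permutation p = 0.114). It was -1.48 without ApoE-deficient replicate 3 (adjusted p = 0.163).

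Cxcr4, the receptor of CXCL12 on most leukocytes, differed from these 2 in pattern. It was at -0.0013, 0.02, -1.11 and -0.34 in double-deficient aortas, against 0.0013, 0.62, 0.66 and -0.21 in ApoE-deficient aortas. ApoE-deficient replicate 3, low for Cxcr5 and Ccr7, was here the highest array. The difference was -0.63 (SE 0.30, 95% interval -1.33 to 0.08, adjusted p = 0.665 by limma, exact permutation p = 0.143). Without double-deficient replicate 3 it was -0.38.

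In CD115+ blood cells Cxcr5 was at -0.41, 1.67 and 0.79 in double-deficient preparations, against 0.41, -0.94 and -0.86 in ApoE-deficient preparations. Double-deficient replicates 2 and 3 were high, the pooled ApoE-deficient replicates 3 and 4 were low, and replicate 1 of each genotype lay between. The difference was 1.15 (SE 0.62, 95% interval -0.37 to 2.67, adjusted p = 0.976 by limma, exact permutation p = 0.2). It was 0.66 without double-deficient replicate 2 and 0.28 without the 2 pooled preparations, where the 1 remaining ApoE-deficient array is assumed to vary like the others.

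Ccr7 was at -0.04, 1.53 and 0.87 in double-deficient preparations, against 0.04, -0.89 and -0.86 in ApoE-deficient preparations. The same preparations were high and low as for Cxcr5, and the groups overlapped by a narrow margin. The difference was 1.35 (SE 0.46, 95% interval 0.23 to 2.48, unadjusted p = 0.0262, adjusted p = 0.976 by limma, exact permutation p = 0.2). Without the pooled preparations it was 0.74.

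Cxcr4 was at -0.16, 0.42 and 0.61 in double-deficient preparations, against -0.02, 0.02 and -0.32 in ApoE-deficient preparations. Double-deficient replicates 2 and 3 were again the high ones, within a narrower range. The difference was 0.39 (SE 0.22, 95% interval -0.14 to 0.93, adjusted p = 0.976 by limma, exact permutation p = 0.3). It was 0.62 without double-deficient replicate 1 and 0.23 without double-deficient replicate 3.

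**Figure D3:**
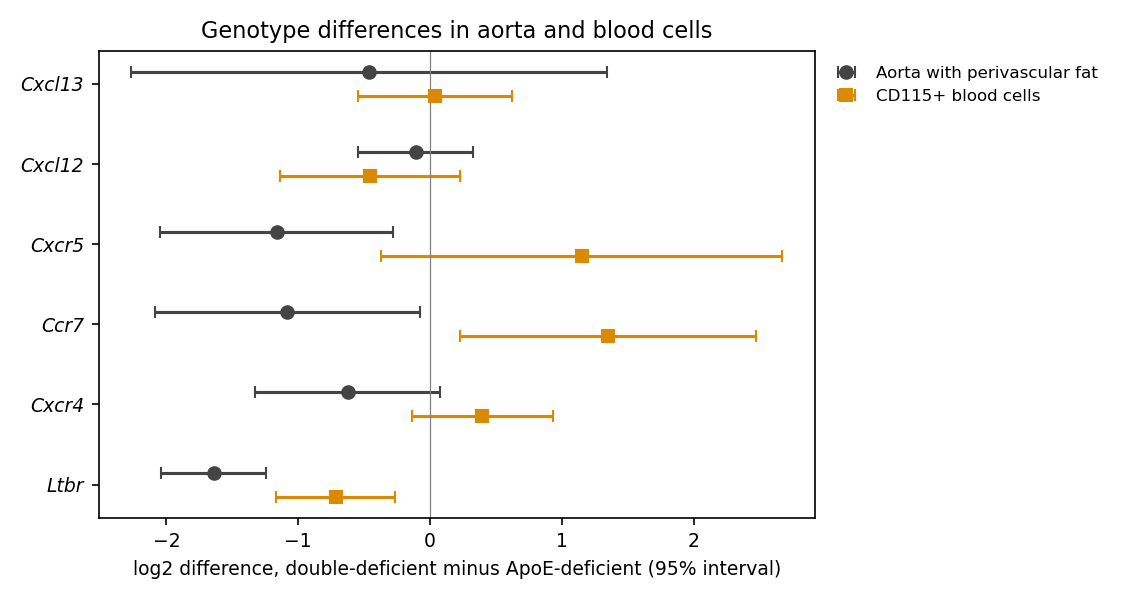
Log2 difference, double-deficient minus ApoE-deficient, with its 95% interval from limma (horizontal axis), for each gene in aorta (grey circles) and in CD115+ blood cells (orange squares). Cxcr5, Ccr7 and Cxcr4 lie left of 0 in aorta and right of 0 in blood cells, and Ltbr lies left of 0 in both.

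Whether the genotype difference itself differed between the tissues was tested in 1 fit of all 14 arrays. For Cxcr5 the aorta difference minus the blood cell difference was -2.31 (SE 0.74, unadjusted p = 0.00889), for Ccr7 -2.43 (SE 0.68, unadjusted p = 0.00403) and for Cxcr4 -1.02 (SE 0.42, unadjusted p = 0.0333). Adjusted over all genes by limma, these p were 0.591, 0.591 and 0.687. Thus 3 of 5 genes had an unadjusted p under 0.05, against 6.90% of all genes (1530 genes), and 0 of 5 passed the adjusted threshold, as did 0% of all genes by limma. That count over all genes was 30 without ApoE-deficient aorta replicate 3 and 58 without double-deficient blood replicate 1. For the ligands the values were -0.50 (SE 0.99) for Cxcl13 and 0.35 (SE 0.35) for Cxcl12, with adjusted p of 0.964 and 0.916 by limma. The Cxcl12 value was 0.66 without double-deficient blood replicate 1 (unadjusted p = 0.0377, adjusted p = 0.405) and 0.12 without double-deficient blood replicate 2, and the Cxcl13 value was -1.03 without ApoE-deficient aorta replicate 3 and 0.12 without double-deficient aorta replicate 4.

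Markers of lymphocytes were high on the same arrays as both homing receptors. The order among the double-deficient aortas was not the same: replicate 4 was highest for Cxcr5 and Ccr7 but lowest for the T cell mean. In aorta the mean of the B cell markers was at -0.45, -0.50, -0.14 and -0.21 in double-deficient samples, against 2.31, 2.36, -0.18 and 1.497 in ApoE-deficient samples. The T cell marker mean was at -0.25, -0.39, -0.77 and -0.92, against 1.17, 1.27, 0.02 and 0.79 in ApoE-deficient samples. ApoE-deficient replicate 3, low for Cxcr5 and Ccr7, was also low for B cell markers, while its T cell mean stayed above every double-deficient array. All 8 measured B cell markers and all 11 T cell markers had negative differences in aorta (medians -1.96 and -1.43), and 7 and 10 of them had an unadjusted p under 0.05, against 3.81% of all genes in that direction. None of them passed the adjusted threshold with all arrays. Without ApoE-deficient replicate 3, the array low for the B cell markers, 4 B cell and 4 T cell markers passed, among 74 of all 22180 genes. Without any other single array none of them passed. Other blood cell lists leaned lower in aorta too, with smaller medians. The monocyte list was negative in 5 of 6 genes (median -0.19, 2 at an unadjusted p under 0.05). The neutrophil list was negative in 5 of 5 (median -0.18) and the platelet list in 4 of 4 (median -0.36). The macrophage list was negative in 2 of 5 (median 0.05) and the adipocyte list in 3 of 5 (median -0.01).

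In blood cells the direction was turned for these lists as well. The B cell marker mean was at -0.29, 1.92 and 1.08 in double-deficient preparations, against 0.29, -0.88 and -0.82 in ApoE-deficient preparations. From highest to lowest, the 6 preparations stood in the same order for it as for Cxcr5 and Ccr7. The T cell marker mean was at 0.01, 0.65 and 0.29, against -0.02, -0.29 and -0.28 in ApoE-deficient preparations. The monocyte marker mean, in contrast, was at -0.88, -0.15 and 0.69 in double-deficient preparations, against 0.40, -0.09 and 0.15 in ApoE-deficient preparations, which is another order than that of the receptors. Platelet and neutrophil markers were highest in double-deficient replicate 2, at 1.67 and 1.14, where Cxcr5 and Ccr7 were highest too. The part of lymphocytes in the bead-selected cells or in the aorta in the receptor values was not tested.

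**Figure D4:**
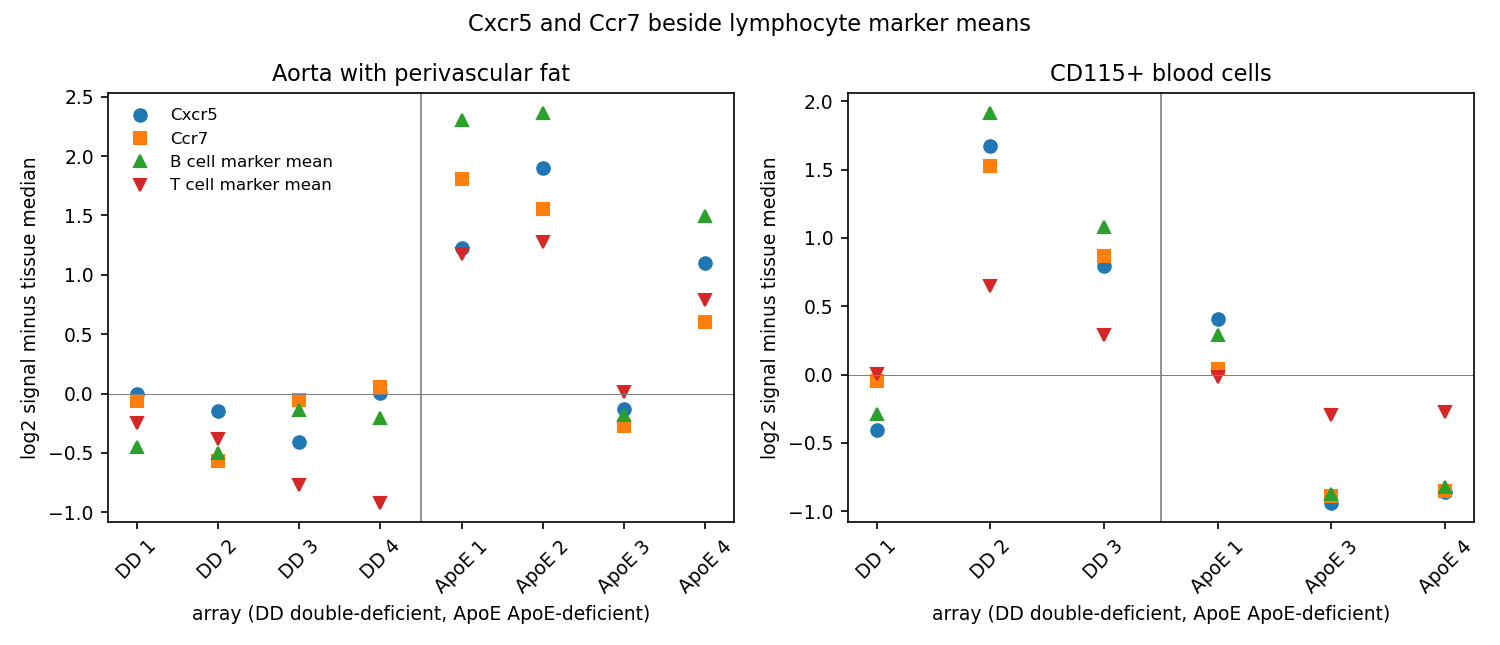
Log2 signal relative to the tissue median (vertical axis) of Cxcr5 and Ccr7 and the mean over B cell (8 genes) and T cell (11 genes) markers on each array, double-deficient (DD) left of ApoE-deficient (ApoE), in aorta (left) and CD115+ blood cells (right). The 4 measures are high on the same arrays, ApoE-deficient replicates 1, 2 and 4 in aorta and double-deficient replicates 2 and 3 in blood cells.

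Markers of stromal cells, among which the ligands are usually made, differed less. In aorta the fibroblast list was positive in 5 of 5 genes with a median of 0.18, the smooth muscle list in 5 of 5 with 0.29 and the endothelial list in 5 of 5 with 0.11. Single arrays moved these medians: the fibroblast median was 0.067 when double-deficient replicate 1 was left out and 0.10 when ApoE-deficient replicate 3 was. The smooth muscle median was 0.18 without double-deficient replicate 2. The endothelial median was 0.25 when double-deficient replicate 3 was left out and 0.18 when ApoE-deficient replicate 1 was. The lymphatic endothelial list was negative in 3 of 5 genes (median -0.09), and the dendritic cell list, whose mature cells carry CCR7, in 5 of 7 (median -0.09). The dendritic median was 0.08, with 3 of 7 genes negative, without ApoE-deficient replicate 1, and the lymphatic median ran from -0.20 to -0.04 without single arrays. Within these lists Ccl22, a chemokine of mature dendritic cells, differed by -1.07 (SE 0.39, adjusted p = 0.573 by limma). The other dendritic cell genes did not follow it and ran from -0.22 (Flt3) to 0.30 (Zbtb46), with Fscn1 at -0.03. Prox1, the lymphatic transcription factor, differed by -0.60 (SE 0.21, adjusted p = 0.564 by limma), and the other lymphatic genes from -0.55 (Lyve1) to 0.13 (Pdpn). Ccl22 and Prox1 were singled out after their values had been seen. Natural killer cell markers were negative in 5 of 5 genes (median -0.23, or -0.39 without ApoE-deficient replicate 3), with a mean of -0.02, -0.40, -0.11 and -0.08 in double-deficient aortas, against 1.01, 0.79, -0.17 and 0.41 in ApoE-deficient aortas. None of the genes in these 6 lists passed the adjusted threshold, although 1 natural killer cell marker did so without ApoE-deficient replicate 3, where 74 of all genes passed.

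Other genes that guide cells in lymphoid tissue were split. Of 9 measured genes of that list, 5 had lower means in double-deficient aortas and 4 higher, and 0 passed the adjusted threshold. At an unadjusted p under 0.05, 2 were lower, against 3.81% of all genes, but 4 without ApoE-deficient replicate 3 and 1 without double-deficient replicate 3, double-deficient replicate 4 or ApoE-deficient replicate 4. The share of all genes without these arrays is not given here. Ccr6, a receptor of B cells and of some helper T cells, was high on the same aorta arrays as Cxcr5. It was at -0.10, 0.05, -0.08 and -0.05 in double-deficient aortas, against 1.78, 1.39, -0.33 and 1.97 in ApoE-deficient aortas. Its difference was -1.24 (SE 0.46, adjusted p = 0.584 by limma). Ccr6 passed the adjusted threshold when ApoE-deficient replicate 3 was left out, where 74 of all genes passed. Ccl20, the ligand of CCR6, averaged -0.17 ± 0.11 in double-deficient and 0.19 ± 0.17 in ApoE-deficient aortas (SD, n = 4 each) without overlap. Cyp7b1, which makes the oxysterol ligand of GPR183, averaged 0.11 ± 0.16 in double-deficient aortas and -0.20 ± 0.16 in ApoE-deficient aortas. Its groups did not overlap either, but only narrowly so, with a double-deficient minimum of 0.005 and an ApoE-deficient maximum of -0.005. Such separation held for 2.11% of all genes in the lower and 2.19% in the higher direction, and 3.91% were higher at an unadjusted p under 0.05. S1pr1, the receptor for leaving lymphoid tissue, differed by -0.41 (SE 0.18).

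In blood cells S1pr1 averaged 0.38 ± 0.43 (SD, n = 3) in double-deficient preparations, against -0.42 ± 0.32 (SD, n = 3) in ApoE-deficient ones, a difference of 0.81 (SE 0.26, adjusted p = 0.976 by limma). Its groups did not overlap, which held in the higher direction for 3.93% of all genes. Hsd3b7, which breaks down the GPR183 ligand, differed by -0.22 (SE 0.10, adjusted p = 0.976 by limma). Its groups were separated only narrowly, with a double-deficient maximum of -0.014 and an ApoE-deficient minimum of 0.014, and 5.23% of all genes were lower without overlap. Ccr6 and Ccl20 differed by 0.25 (SE 0.14) and -0.09 (SE 0.07).

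In the list of lymphotoxin and non-canonical NF-kB genes, 15 of 16 measured genes had negative differences in aorta (median -0.32). Of these, 7 had an unadjusted p under 0.05, against 3.81% of all genes, and 0 passed the adjusted threshold. Both the 15 and the 7 include Ltbr itself, which differs between the genotypes by design. When ApoE-deficient replicate 3 was left out, 4 passed (Ltb, Ltbr, Birc2 and Glycam1), among 74 of all genes. Glycam1, a mucin-like glycoprotein made by high endothelial venules, was at -1.03, -1.07, -1.85 and -0.70 in double-deficient aortas, against 3.90, 3.86, 0.70 and 3.13 in ApoE-deficient aortas. Ltb, the membrane-anchored ligand of LTbR that lymphocytes make, was at -0.41, -0.34, -0.22 and -0.13 in double-deficient aortas, against 3.55, 3.01, 0.13 and 2.87 in ApoE-deficient aortas. For both, ApoE-deficient replicate 3 was the lowest of its group but still above all double-deficient arrays, a separation that 2.11% of all genes showed in the lower direction. The differences of Glycam1 and Ltb were -4.06 (SE 0.69, adjusted p = 0.296) and -2.66 (SE 0.67, adjusted p = 0.461 by limma). Birc2, an inhibitor of the pathway's kinase, differed by -0.39 (SE 0.12).

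In blood cells 8 of these 16 genes had lower and 8 higher means, and 1, Ltbr itself, had an unadjusted p under 0.05, against 2.33% of all genes in that direction. Ltb was at -0.40, 1.80 and 1.19 in double-deficient preparations, against 0.40, -0.89 and -0.52 in ApoE-deficient preparations, with the high and low preparations of Cxcr5 and Ccr7. Its difference was 1.20 (SE 0.63, adjusted p = 0.976 by limma). Lta, the soluble partner of Ltb, and Birc2 differed by 0.23 (SE 0.13) and 0.21 (SE 0.145).

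Genes that carry the signal inside migrating leukocytes leaned the same way. Of 15 measured, 13 were negative in aorta (median -0.25), 5 at an unadjusted p under 0.05, against 3.81% of all genes. Without ApoE-deficient replicate 3 that number was 6, and it was 2 to 4 without any other single array. The share of all genes in these settings is not given here. Rgs1, which shortens chemokine receptor signalling in lymphocytes, averaged -0.13 ± 0.05 in double-deficient and 0.47 ± 0.30 in ApoE-deficient aortas (SD, n = 4 each). Rac2, a small GTPase of blood cells, averaged -0.64 ± 0.56 in double-deficient and 0.77 ± 0.57 in ApoE-deficient aortas. Neither overlapped, as 2.11% of all genes did not in the lower direction, and their differences were -0.60 (SE 0.14, adjusted p = 0.445) and -1.42 (SE 0.35, adjusted p = 0.461 by limma). Rgs1 passed the adjusted threshold when ApoE-deficient replicate 3 was left out, where 74 of all genes passed. Dock2, which activates Rac downstream of chemokine receptors, and Pik3cg, a lipid kinase on the same route, differed by -0.97 (SE 0.42) and -0.80 (SE 0.32).

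In blood cells 12 of these 15 genes were positive (median 0.12). Of the 15, 0 had an unadjusted p under 0.05, against 2.06% of all genes in the higher and 2.33% in the lower direction. Without double-deficient replicate 1, 5 were higher at that level, as were all 8 B cell markers. The share of all genes in that setting is not given here. The lean was not kept without double-deficient replicate 2, where 7 of 15 were negative (median 0.02), or without double-deficient replicate 3, where 8 of 15 were negative (median -0.003). Rhoh, a GTPase of lymphoid cells, averaged 0.59 ± 0.63 (SD, n = 3) in double-deficient preparations, against -0.09 ± 0.16 (SD, n = 3) in ApoE-deficient ones. Dock2 differed by 0.58 (SE 0.55), Rgs16 by -0.28 (SE 0.16) and Gnai3, an inhibitory G protein subunit, by 0.11 (SE 0.09).

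The genes most like each receptor or ligand over the 8 aorta arrays were sought among 5136 genes with an SD of at least 0.3 there. Gene models, small RNA genes, olfactory receptors and some other families were left out. This is a description that shares arrays and normalization, and the best of so many correlations over 8 arrays can be high by chance. Cxcr5 was closest to Heatr1 (Pearson r = 0.99), the B cell gene Fcrl1 (0.98) and H2-DMa (0.98), which loads peptides onto class II molecules. Over the 6 blood arrays the correlation with Cxcr5 was 0.57 for Heatr1, 0.97 for Fcrl1 and 0.87 for H2-DMa. Ccr7 was closest to Ciita (0.99), the activator of class II genes, Malt1 (0.99), which relays antigen receptor signals, and Wdfy4 (0.98), with 0.87, 0.84 and 0.86 in blood. Cxcl13 was closest to Casp4 (0.955), Lrrk1 (0.94) and Asprv1 (0.92), Cxcl12 to Emc8 (0.94), Setbp1 (0.93) and Litaf (0.92), and Cxcr4 to Coa6 (0.93), Kdelr1 (0.93) and Lsm4 (0.91). For Cxcl13, Cxcl12 and Cxcr4 the blood values ran from -0.99 to 0.39, so the high positive correlations in aorta were not seen there.

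A coarse level can still be read from how the values were rounded, if they are differences of 32-bit log2 numbers. Numbers from 8 to 16 have a step of 2 to the power -20, and smaller ones a finer step, so a value on the finer step shows that the array or the median lay under 8. The reverse does not hold: numbers under 8 can also fall on the coarser step, so a value there does not show a level above 8. In aorta no Cxcl12 array and 1 Cxcl13 array, double-deficient replicate 4, was on the finer step. For Cxcr4 it was double-deficient replicate 3 alone. Cxcr5 had 4 of 7 usable aorta arrays on the finer step and Ccr7 2 of 8. In blood cells 5 of 6 Cxcl13 arrays were on it, 3 of 6 for Ccr7, 1 each for Cxcr5 and Cxcl12, and 0 for Cxcr4. For comparison, 14.9% of probe sets in aorta and 9.9% in blood cells with at least 5 usable arrays had none on the finer step. A level of 8 is not a detection limit, and these steps show no expression by themselves.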

How the data were processed

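The authors deposited 1 table of values for 33793 probe sets on 14 arrays, read here as log2 signals. No source used here gives the summarisation, normalization or log base. Biotin-labelled cDNA had been amplified from 1 ng of total RNA, per the labels' protocols. Each probe set had a median of 0, to within 1e-06, both over the 8 aorta arrays and over the 6 CD115+ arrays, which shows centring by tissue. This removes levels, so no filter on low signal was possible. Array medians ran from -0.0077 to 0.0052.

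A platform annotation gave 1 symbol to 23521 probe sets, several to 1814 and none to 8458. Probe sets with 1 symbol were averaged per gene (22180 genes) and each tissue was fitted on its own (lmFit and eBayes of limma 3.58.1, R 4.3.3, with Benjamini-Hochberg adjustment). Intervals are 95%. The labels call samples separate or pooled but name no batch, so p-values measure the spread between samples, which may in part be technical. Alternatives were robust eBayes, array weights, other probe set rules, other scalings, 1 fit of all arrays, an SD filter, the replicate block and leaving out arrays. The fit was tested on simulated data.

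The genes and lists were chosen with earlier results of these data known. From each pathway list the genes named were the 4 of smallest p in each tissue. Some listed genes, such as Chuk, Traf3 and Grk2, were not analysed here, and Ccl19 and the Ccl21 genes were described only through shared probe sets, each fitted alone. Rounding steps were read only where at least 5 arrays were usable.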

Additional observations from a re-analysis of the deposited data

Results flagged for a closer look

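Dixon's test at 95% was applied to the 4 aorta arrays of each genotype for 22 named genes, 44 groups in all, and marked 4, where chance marks about 1 group in 20. Cxcl13 in ApoE-deficient replicate 3, at -1.99, stood apart from the other ApoE-deficient aortas, which lay from 0.08 to 0.20. This array was also low for Cxcr5, Ccr7, Ccr6 and the B cell markers. Cyp7b1 in double-deficient replicate 1 was at 0.346, above the other 3 double-deficient aortas. Rhoh in double-deficient replicate 2 was at 1.09 and Rgs16 in double-deficient replicate 1 at 1.51, each above its group.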

How the results depend on the processing

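The direction of Cxcr5, Ccr7, Cxcr4 and Cxcl12 was kept in both tissues under every alternative run, with Cxcr5 between 0.28 and 1.70 in blood cells. Leaving out each array gave -1.55 to -0.87 for Cxcr5 in aorta, -0.996 to 0.15 for Cxcl13 in aorta, -0.16 to 0.23 for Cxcl13 in blood cells and -1.03 to 0.12 for the difference of Cxcl13 between tissues. Cxcl13 in blood cells, at 0.04, was also -0.042 with array weights. The count of genes past the threshold in aorta was 1, but 0 with robust eBayes, array weights, the probe set of largest SD or each probe set fitted alone, 7 among the genes of above-median SD, 19 with all 14 arrays in 1 fit, and 0 to 74 without single arrays. In blood cells it was 0, and 2 among the genes of above-median SD. Between tissues it was 0, and 0 to 58 without single arrays. Ltbr passed in aorta with all arrays in 1 fit (adjusted p = 0.00598 by limma) and among the genes of above-median SD (0.0153). It also passed without double-deficient replicate 4 (0.019) or ApoE-deficient replicate 3 (0.0371). The causes were not tested.

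The deviations of same-numbered aorta arrays correlated at 0.17, -0.15, -0.14 and 0.06 over genes. Those of differently numbered aorta arrays ran from -0.14 to 0.25. For the 2 numbers shared in blood cells the values were -0.47 and -0.29. With so few pairs these correlations show no pairing by replicate number but cannot exclude one. With the replicate block Cxcr5 and Ccr7 were at -1.17 and -1.08 in aorta and at 0.46 and 0.83 in blood cells, Cxcl13 in blood cells was at -0.11, and no call changed among the 5 genes.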
